A study of Sus scrofa with 40 samples.

Results

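FDPS, CYP51, TM7SF2 and CYP7A1, 4 enzymes that make cholesterol or open its route to bile acids, were followed across 40 pig arrays. The genes were taken by name, as all probe sets whose only gene symbol in the array's annotation was a member. This gave 4 probe sets, 1 for each gene, of 23999 on the array without controls and of 10069 with exactly 1 gene symbol. The annotation ties them to the Entrez genes 100153932 (FDPS), 403334 (CYP51), 100514510 (TM7SF2) and 448985 (CYP7A1).

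Cells build cholesterol from acetyl-CoA through mevalonate, farnesyl diphosphate, squalene and lanosterol. FDPS, farnesyl diphosphate synthase, makes the last intermediate that the sterol route shares with protein prenylation and ubiquinone synthesis. CYP51 is the oxidase that removes a methyl group from lanosterol, and TM7SF2 is a sterol reductase that can act on the product of that step. Genes of this route are known targets of SREBF2, a membrane-bound transcription factor that is released when sterols run low. CYP7A1 works at the other end: it hydroxylates cholesterol in hepatocytes, the rate-limiting entry to the classic bile acid route, and is known to be held down by bile acids. Adipose tissue stores much of the body's free cholesterol and makes little of it.

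The study asked how liver and fat of pigs that differ in feed efficiency respond to a short feed shortage. The animals were 20 prepubertal Yorkshire gilts aged 6 months, all heterozygous for a variant of MC4R, from lines of low or high residual feed intake (RFI). RFI is the feed eaten above what growth and upkeep predict, and the labels call the low RFI pigs highly feed efficient. In each line, 5 gilts ate ad libitum and 5 received 80% of maintenance feed for 8 days. Liver and the middle layer of backfat at the tenth rib were each profiled on 20 arrays, 5 for every line and diet. The labels do not link a liver array to the fat array of the same pig.

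Values are deposited intensities in scaled units, with a trimmed mean of 500.09 to 500.15 on every array. They carry no counts, so the number of arrays limits the precision. Tissue labels were borne out by defining markers: 8 of 8 named adipocyte markers passed the low-signal filter in fat, and 11 of 11 named hepatocyte markers passed it in liver. Only 3 of the 11 passed in fat and 3 of the 8 in liver, and none of these markers was listed at 0. The summed intensity of the 11 hepatocyte markers in fat ran from 3149 to 5174 ad libitum and from 4946 to 82668 under restriction. The top value belonged to the low RFI restricted array numbered 5. The summed intensity of 10 skeletal muscle markers in fat had a median of 34794 in low RFI pigs (1118 to 101134) and 2692 in high RFI pigs (925 to 30669). In both tissues arrays numbered 1 and 2 had higher log2 ratios of 3' to 5' actin controls than those numbered 3 to 5, at 2.27 against 1.56 in fat and 2.25 against 1.32 in liver. Pigs of every group occur in both sets, and effects were computed again inside each of them.

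In backfat, all 3 measurable sterol genes fell under restriction. FDPS fell 2.47-fold, CYP51 2.37-fold and TM7SF2 1.94-fold, and each fell in both lines. CYP7A1 was too dim in fat to be tested. The calls come from limma over the 15498 probe sets that passed the filter, with Benjamini-Hochberg adjustment and a threshold of 0.05. Lower calls made up 10.7% of those probe sets, so a call by itself is not rare in this comparison. Fewer cells of a type and less RNA per cell cannot be told apart in such bulk tissue.

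FDPS intensity in fat of low RFI pigs was 1051, 1532, 1327, 1874 and 2162 ad libitum, and 443, 775, 453, 416 and 742 under restriction. In high RFI pigs it was 1499, 1185, 881, 1737 and 2049 ad libitum, and 735, 686, 573, 855 and 471 under restriction. The diets did not overlap: the highest restricted pig (855) lay just under the lowest ad libitum pig (881), both of the high RFI line. Such a complete separation was found for 1.01% of the probe sets tested. The log2 change was -1.31 (SE 0.17, 95% interval -1.67 to -0.95, adjusted p = 2.19e-05 in limma). Within arrays numbered 1 and 2 the change was -1.01 (adjusted p = 0.045), and within those numbered 3 to 5 it was -1.50 (adjusted p = 0.00210).

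CYP51 intensity in fat of high RFI pigs was 3550, 3851, 2088, 3284 and 2953 ad libitum, and 1339, 1550, 1498, 1702 and 971 under restriction. Low RFI pigs had 1686, 3278, 2288, 2791 and 2165 ad libitum, and 865, 1736, 830, 737 and 797 under restriction. Within each line only the low RFI restricted pig at 1736 reached the ad libitum range, where it lay above the pig at 1686. The other 4 low RFI restricted pigs sat between 737 and 865. Across lines the high RFI restricted pig at 1702 also lay above 1686. The log2 change was -1.25 (SE 0.16, interval -1.58 to -0.91, adjusted p = 1.8e-05 in limma). It was -1.15 within arrays numbered 1 and 2, where the call was lost (adjusted p = 0.0589), and -1.31 within those numbered 3 to 5 (adjusted p = 0.000636).

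TM7SF2 was dim in fat. Ad libitum intensities were 133, 188, 239, 210 and 160 in low RFI pigs and 190, 195, 164, 262 and 219 in high RFI pigs. Restricted intensities were 58, 61, 109, 130 and 122 in low RFI pigs and 115, 99, 132, 110 and 92 in high RFI pigs. The diets again did not overlap, although the margin was only that between 132 and 133. The probe set exceeded the 40th percentile of its array in 10 of 10 ad libitum and in 6 of 10 restricted pigs. The 4 restricted pigs below that mark read 58, 61, 92 and 99. The log2 change was -0.96 (SE 0.17, interval -1.30 to -0.61, adjusted p = 0.000313 in limma), with -1.14 (adjusted p = 0.0357) and -0.84 (adjusted p = 0.00704) in the lower and upper number sets.

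CYP7A1 fell below the 40th percentile of every fat array. Its intensity there ranged from 22 to 101 ad libitum and from 8 to 99 under restriction, with medians of 41.7 and 55.0. These values are too low to rank the groups. The gene is known as hepatocyte-specific. On the fat array with the highest hepatocyte marker sum it read 42, inside the range of the other fat arrays.

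**Figure D1:**
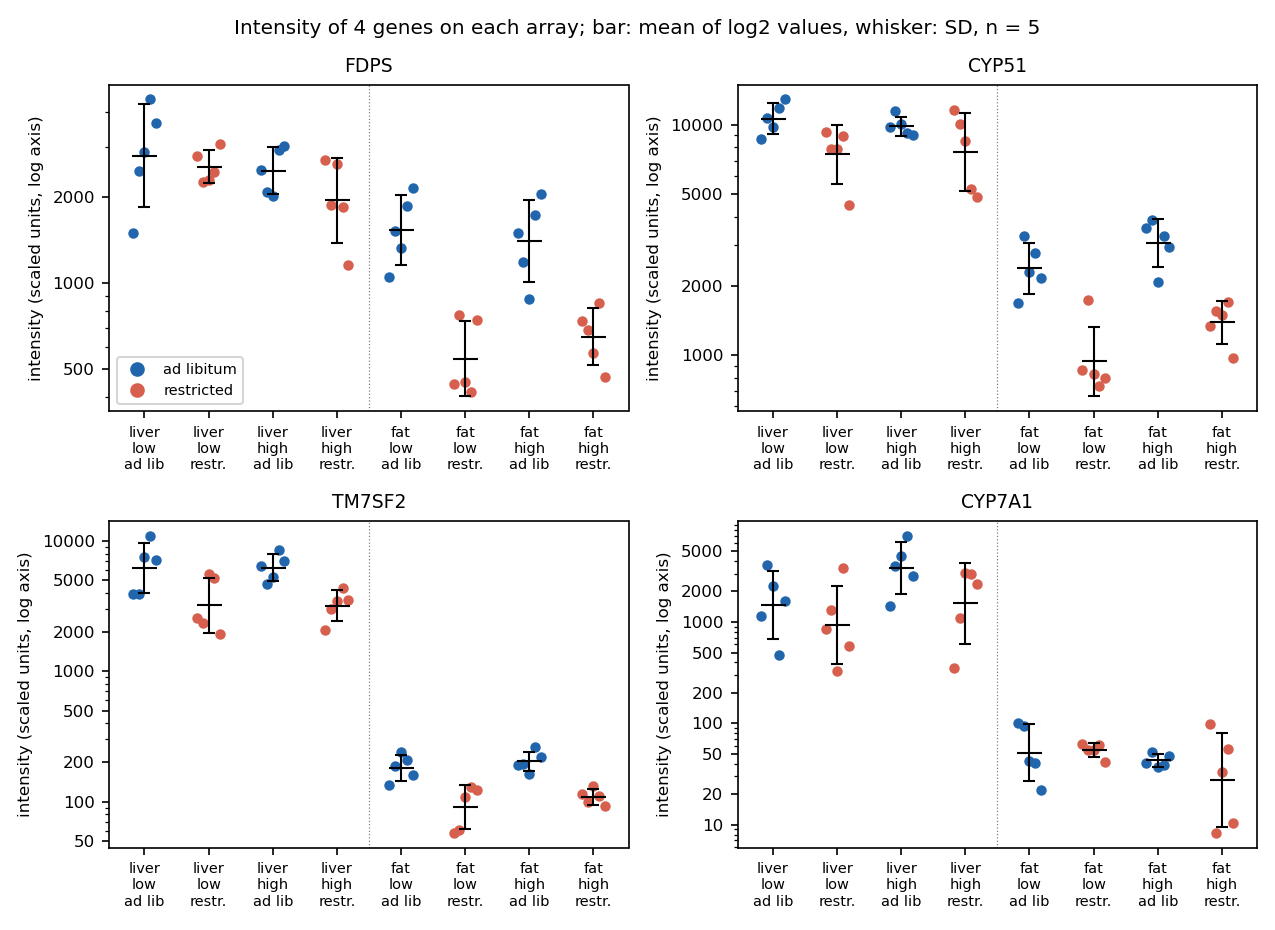
Intensity (log axis) of FDPS, CYP51, TM7SF2 and CYP7A1 on each array, by tissue, RFI line and diet, with 5 arrays a group; points are arrays, horizontal bars the mean of log2 values and whiskers its SD. In fat, restricted pigs lie below ad libitum pigs for FDPS and TM7SF2 without overlap, while CYP7A1 in liver spreads from 329 to 7080.

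The 3 genes fell in each line when the lines were tested apart. FDPS changed by -1.50 in low RFI pigs (adjusted p = 0.000805 in limma) and by -1.12 in high RFI pigs (adjusted p = 0.0079). CYP51 changed by -1.34 (adjusted p = 0.00106) and -1.15 (adjusted p = 0.0041), and TM7SF2 by -1.01 (adjusted p = 0.0103) and -0.91 (adjusted p = 0.0197). Lower calls made up 4.83% of probe sets in low RFI and 4.55% in high RFI fat. The high RFI call of TM7SF2 was lost without ad libitum array 4 (-0.81, adjusted p = 0.0600), ad libitum array 5 (-0.88, adjusted p = 0.0514) or restricted array 5 (-0.85, adjusted p = 0.0538). With the control ratios described next as covariates, FDPS in high RFI pigs (-1.06, adjusted p = 0.0516) and TM7SF2 in low (-0.91, adjusted p = 0.0582) and high RFI pigs (-0.89, adjusted p = 0.0694) lost the call. TM7SF2 in low RFI pigs also lost it without the 3 fat arrays of strongest hepatocyte or muscle marker signal (-0.89, adjusted p = 0.0738). Within arrays numbered 1 and 2, with 2 arrays a group, none of the 6 within-line effects passed (adjusted p from 0.157 to 0.394), and each had the same sign as before. Within arrays numbered 3 to 5, FDPS and CYP51 passed in low RFI pigs, whereas FDPS (adjusted p = 0.0875) and CYP51 (0.0596) in high RFI pigs and TM7SF2 in low (0.0866) and high RFI pigs (0.0817) did not. The difference between the lines was -0.38 for FDPS (interval -1.10 to 0.34), -0.19 for CYP51 (-0.86 to 0.48) and -0.10 for TM7SF2 (-0.79 to 0.59), each with an adjusted p of 1. No probe set in fat passed this interaction test (0%), and 244 had an unadjusted p under 0.05 in limma. The intervals leave room for differences between lines of up to 1.10 on the log2 scale for FDPS.

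The ratio of GAPDH controls and 1 of 3 tested hepatocyte markers moved with diet in fat beside these genes. That marker was APOA1 (0.82, adjusted p = 7.95e-05 in limma). ALB (adjusted p = 0.318) and TF (adjusted p = 0.253) did not pass. The log2 ratio of 3' to 5' GAPDH controls was 1.19 ± 0.365 (SD, n = 10) ad libitum and 1.88 ± 0.521 (n = 10) under restriction, a difference of 0.69 (two-sided exact permutation p = 0.00441). With this ratio and that of actin as covariates the diet effects were -1.28 for FDPS (adjusted p = 0.00167 in limma), -1.17 for CYP51 (adjusted p = 0.000283) and -0.90 for TM7SF2 (adjusted p = 0.00977). Without the 3 fat arrays of strongest hepatocyte or muscle marker signal, the effects were -1.30, -1.16 and -0.90 (adjusted p = 0.000257, 0.000433 and 0.00164). Of 6 endothelial markers 2 rose, and the summed intensity of the 6 had a median of 11026 ad libitum (9254 to 16085) and 16561 under restriction (6785 to 19008). Of 8 tested adipocyte markers 1 rose and 1 fell. Over all 15498 probe sets tested in fat, 2344 were called higher and 1655 lower, so such calls are not rare. The part of the endothelial and adipocyte markers in the results was not tested.

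The rest of the sterol route was read from a list of 22 enzymes, of which 11 had a named probe set and all 11 were tested in both tissues. In fat 9 of 11 fell, none rose and 11 of 11 were below 0, with a median log2 change of -0.96 against 0.08 over all probe sets tested, of which 10.7% were called lower. With the control ratios as covariates 6 of 11 fell, as did 6 without the 3 fat arrays of strongest hepatocyte or muscle marker signal. The share of all probe sets called lower under these settings is not given here, so these counts have no background to be judged against. Of the 9, 3 are the genes described above, so 6 of the other 8 fell, with a median over those 8 of -0.59. Only FDPS and TM7SF2 separated the diets completely.

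Early steps differed in size. ACAT2, which condenses acetyl-CoA units, changed by -1.42 in fat (adjusted p = 2.97e-05 in limma), from a median of 1756 to 623, and its other tested probe set by -1.55. HMGCS1, which makes HMG-CoA, changed by -0.51 (adjusted p = 0.0264). FDFT1, squalene synthase, which uses the product of FDPS, did not pass the test: its median was 1854 ad libitum and 1825 under restriction, a log2 change of -0.08 (adjusted p = 0.663). SQLE, the squalene oxidase that follows, changed by -0.67 (adjusted p = 0.0155).

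Of the steps around CYP51 and TM7SF2, MSMO1, a methylsterol oxidase, changed by -1.19 in fat at its brightest probe set (adjusted p = 7.29e-05 in limma). Its other tested probe set stood at -0.51 and did not pass. SC5D, a late desaturase, changed by -1.24 (adjusted p = 0.00102). HSD17B7, a sterol ketone reductase, changed by -0.46 (adjusted p = 0.0253). NSDHL, a sterol dehydrogenase, missed the threshold at -0.30 (adjusted p = 0.0511). Within arrays numbered 1 and 2, 4 of the 11 genes were called lower with a median of -1.01, beside 1.99% of all probe sets; within those numbered 3 to 5 it was 7 with a median of -0.84, beside 8.07%.

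**Figure D2:**
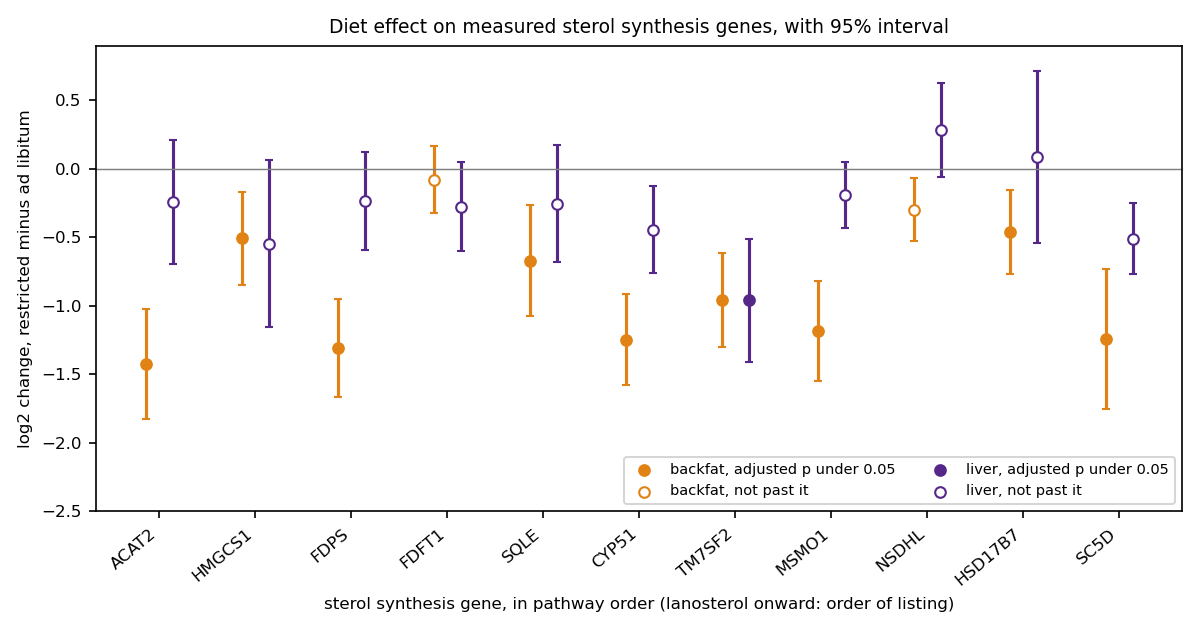
Log2 diet effect (restricted minus ad libitum, y axis) of the 11 measured sterol synthesis genes in backfat and liver, with 95% intervals; filled points passed the adjusted threshold of 0.05. In fat 9 points are filled, with ACAT2 lowest at -1.42 and FDFT1 near 0 at -0.08; in liver TM7SF2 is the only filled point.

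Lists that border the route were read against all 15498 probe sets in fat, of which 3999 were called in either direction. Of 4 tested genes on branches from farnesyl diphosphate outside the sterol route (PDSS1, FNTA, FNTB and ICMT), 0 passed, with a median change of -0.11. At its brightest probe set none of these 4 had an unadjusted p under 0.05 in limma. The other tested probe set stood at -0.03 for FNTA and at -0.50 for FNTB, and neither passed. Among 9 tested genes of sterol sensing and uptake, NPC1, a lysosomal cholesterol exporter, fell by 0.32 (adjusted p = 0.0352), and NPC2, its soluble partner, rose by 0.18 at its brighter probe set (adjusted p = 0.045), while its other tested probe set stood at -0.13 and did not pass. SREBF2 itself stood at 0.00 and SREBF1 at -0.07. INSIG1, which retains the SREBF proteins in the membrane when sterols are plentiful, was at -0.54 at its brighter probe set (adjusted p = 0.0833) and at -1.10 at the other, which passed. ABCA1, which exports cholesterol from cells, rose by 1.86 (adjusted p = 4.27e-06), from a median of 657 to 2702 with no overlap between diets. Of the 15498 probe sets, 2344 were called higher. The share with every restricted pig above every ad libitum pig is not given here.

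In liver, restriction lowered TM7SF2 and no other sterol gene passed the test. The TM7SF2 change of -0.96 was a 1.94-fold decrease (SE 0.22, interval -1.41 to -0.51, adjusted p = 0.0355 in limma over 15677 probe sets). Lower calls made up 0.542% of those probe sets. FDPS stood at -0.24 (interval -0.59 to 0.12, adjusted p = 0.635), CYP51 at -0.44 (-0.76 to -0.13, adjusted p = 0.196, unadjusted 0.00847) and CYP7A1 at -0.91 (-1.85 to 0.03, adjusted p = 0.422).

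TM7SF2 intensity in liver of high RFI pigs was 6373, 4669, 5332, 8477 and 7061 ad libitum, and 2067, 3016, 3448, 4375 and 3510 under restriction. The high RFI diets did not overlap. How many liver probe sets separate the diets in this way within a line is not given here. The separation therefore has no background to be judged against. Low RFI pigs had 3950, 3902, 7491, 10940 and 7190 ad libitum, and 2553, 2347, 5593, 5227 and 1935 under restriction. In this line restricted pigs 3 and 4 lay above ad libitum pigs 1 and 2. Within a line the change was -0.95 in low RFI pigs (adjusted p = 0.26 in limma) and -0.97 in high RFI pigs (adjusted p = 0.641), neither past the threshold. Lower calls within a line were 0.102% and 0.0255% of probe sets. The interaction was 0.02 (interval -0.88 to 0.92).

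The liver call of TM7SF2 rested on the full set of arrays. It was lost without any 1 of 12 of the 20 arrays: low RFI restricted 1, 2 and 5, low RFI ad libitum 3, 4 and 5, high RFI restricted 1, 2 and 5, and high RFI ad libitum 1, 4 and 5. The change then lay between -0.98 and -0.86, with adjusted p from 0.0537 to 0.0718. It was -0.90 within arrays numbered 1 and 2 (adjusted p = 0.142) and -0.995 within those numbered 3 to 5 (adjusted p = 0.146). With the control ratios as covariates it was -1.14 (adjusted p = 0.00175).

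FDPS in liver overlapped between diets in both lines. Low RFI pigs had 1499, 2476, 2894, 4414 and 3640 ad libitum, and 2805, 2271, 2307, 2455 and 3084 under restriction. High RFI pigs had 2505, 2091, 2020, 2940 and 3038 ad libitum, and 2704, 1887, 2628, 1849 and 1157 under restriction. The lowest and the highest pig of the low RFI line were both fed ad libitum. Within arrays numbered 1 and 2 the change had the opposite sign, at 0.19 (adjusted p = 0.768).

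CYP51 in liver was even among ad libitum pigs and uneven under restriction. Ad libitum intensities were 8673, 10668, 9767, 11817 and 12918 in low RFI pigs and 9756, 11466, 10107, 9242 and 9030 in high RFI pigs. Restricted intensities were 9294, 7866, 7894, 8983 and 4472 in low RFI pigs and 11666, 10088, 8519, 5284 and 4883 in high RFI pigs. Low RFI restricted pig 5 and high RFI restricted pigs 4 and 5 were the 3 lowest of 20, all from the arrays numbered 3 to 5. The SD of log2 intensity was 0.18 over the 10 ad libitum pigs and 0.47 over the 10 restricted pigs. This difference in spread was not tested. The diet effect was -0.07 within arrays numbered 1 and 2 (adjusted p = 0.868 in limma). Within those numbered 3 to 5 it was -0.70 (adjusted p = 0.184).

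Over the 11 sterol genes, 1 fell in liver and 9 were below 0, with a median of -0.25 against 0.02 for all probe sets tested. The largest values among the other 8 were those of HMGCS1 (-0.55, adjusted p = 0.473) and SC5D (-0.51, adjusted p = 0.0584), neither past the threshold. NSDHL (0.28) and HSD17B7 (0.09) lay above 0. The median was -0.04 within arrays numbered 1 and 2, beside 0% of probe sets called lower, and -0.50 within those numbered 3 to 5, beside 0.236%. None of the 11 was called within either set in limma, where 2 and 7 of them had an unadjusted p under 0.05. The share of all probe sets with such a p within these sets is not given here.

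**Figure D3:**
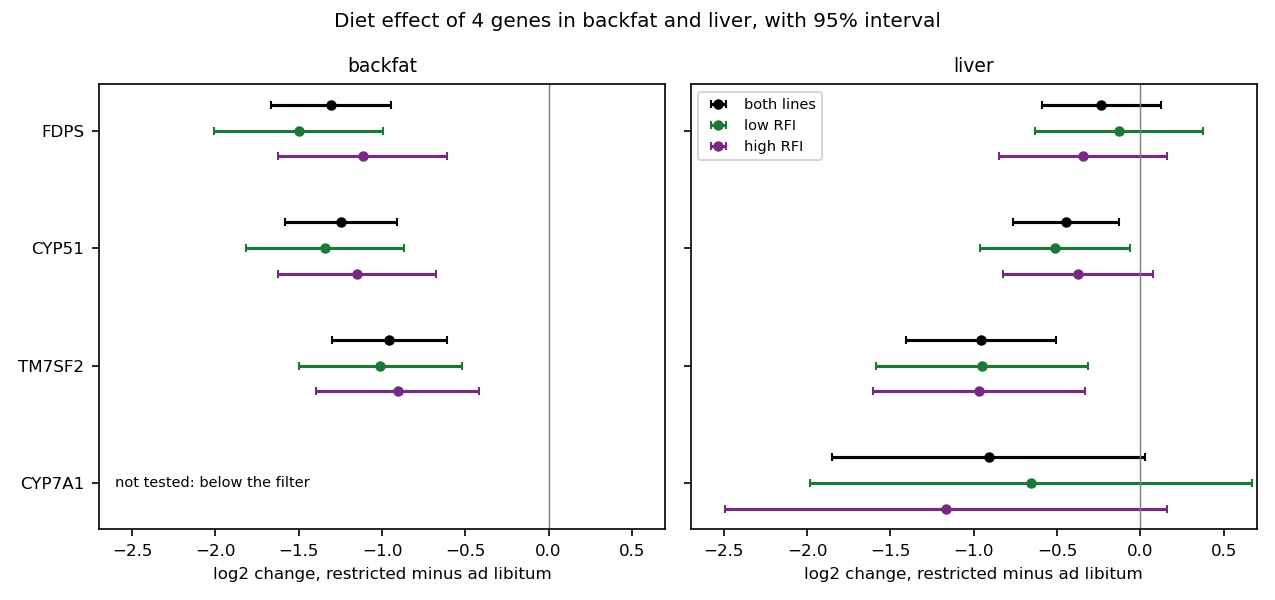
Log2 diet effect (restricted minus ad libitum, x axis) of the 4 genes in backfat and liver, for both lines together and for each line, with 95% intervals. In fat all intervals of FDPS, CYP51 and TM7SF2 lie below 0, in liver all intervals of TM7SF2 and those of CYP51 for both lines and for low RFI pigs do, and the CYP7A1 interval for both lines runs from -1.85 to 0.03.

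The diet effect differed between tissues for FDPS and CYP51, and no difference was found for TM7SF2. The fit treats the 40 arrays as independent, although the 20 pigs gave both tissues. In a fit over all 40 arrays and the 14001 probe sets tested in both tissues, the fat effect minus the liver effect was -1.07 for FDPS (SE 0.252, interval -1.58 to -0.56, adjusted p = 0.00388 in limma). It was -0.80 for CYP51 (SE 0.230, -1.27 to -0.34, adjusted p = 0.0182). For TM7SF2 it was 0.00 with an interval of -0.56 to 0.56 (adjusted p = 0.999), which does not show that the effects are equal. A further fit took fat and liver arrays of the same line, diet and number as correlated pairs. Whether such a pair came from the same pig is not known. The same differences then had adjusted p = 0.000432 for FDPS, 0.00495 for CYP51 and 0.999 for TM7SF2 in limma. The test without this pairing called 10.9% of probe sets. Of the 11 sterol genes 4 passed, all with the larger decrease in fat: the other 2 were ACAT2 (-1.18, adjusted p = 0.00846) and MSMO1 (-0.99, adjusted p = 0.0019). Neither FDPS nor CYP51 passed within arrays numbered 1 and 2 (FDPS -1.20, CYP51 -1.08) or within those numbered 3 to 5 (FDPS -0.99, CYP51 -0.61).

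The 3 sterol genes were brighter in liver than in fat. The liver level of TM7SF2 was 32.3-fold that of fat (log2 5.01, adjusted p = 8.23e-29 in limma), that of CYP51 5.01-fold (log2 2.32, adjusted p = 1.14e-20) and that of FDPS 2.60-fold (log2 1.38, adjusted p = 1.35e-12). Calls higher in liver made up 27.4% of probe sets. The gap depended on diet for FDPS and CYP51: for FDPS it was 0.84 ad libitum and 1.91 under restriction, and for CYP51 it was 1.92 and 2.73. For TM7SF2 it was 5.01 under both diets; the ad libitum gap rests on fat values above the 40th percentile of every array, whereas 4 of 10 restricted fat arrays lay below that mark. No CYP7A1 contrast between tissues was tested, since the fat values lay under the filter, and the lowest liver value (329) was above the highest in fat (101).

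Ordered by mean log2 intensity, the 4 liver groups stood above the 4 fat groups for every gene. FDPS ran from liver low RFI ad libitum (11.45) through the other liver groups to fat high RFI ad libitum (10.46), each neighbour within the larger SD of the pair. The first gap wider than the larger SD of the neighbours came before the 2 restricted fat groups (9.35 and 9.09). For CYP51 the 4 liver groups, from 13.38 to 12.87, did not differ from their neighbours beyond their spread. The fat groups did, in the order high RFI ad libitum (11.59), low RFI ad libitum (11.22), high RFI restricted (10.44) and low RFI restricted (9.88). TM7SF2 fell into 4 steps by tissue and diet: ad libitum liver (12.61 and 12.60), restricted liver (11.65 and 11.64), ad libitum fat (7.67 and 7.51) and restricted fat (6.76 and 6.50), with the lines within their spread at each step.

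CYP7A1 in liver was the most variable of the 4 genes and passed no test. Over the 20 livers its intensity ran 21.5-fold, from 329 to 7080, whereas FDPS ran 3.82-fold, CYP51 2.89-fold and TM7SF2 5.65-fold. Among high RFI pigs it was 1446, 3555, 4489, 7080 and 2862 ad libitum, and 351, 1090, 3028, 2993 and 2388 under restriction. Among low RFI pigs it was 1133, 3631, 2269, 474 and 1617 ad libitum, and 851, 1315, 329, 3431 and 579 under restriction. Below 1000 were 1 of 10 ad libitum and 4 of 10 restricted pigs, which are 4 low RFI pigs and 1 high RFI pig.

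The diet effect on CYP7A1 was a 1.88-fold lower level with an SE of 0.45 on the log2 scale, and its interval included 0. It was -0.66 in low RFI and -1.16 in high RFI pigs, with an interaction of 0.51 (interval -1.37 to 2.38). The within-group SD lay between 0.85 and 1.33 on the log2 scale, so that a change of this size was not resolved with 10 pigs a diet. In mean log2 intensity, high RFI ad libitum livers were highest (11.74), followed by high RFI restricted (10.58), low RFI ad libitum (10.53) and low RFI restricted livers (9.88), and each step was within the larger SD of the neighbours.

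No bile acid gene in liver passed the diet test, and 2 of the 13 tested, PPARGC1A and ABCB11, had an unadjusted p under 0.05 in limma. So did 1941 of all 15677 probe sets tested in liver, a similar share. Of 14 genes of bile acid synthesis 8 had a named probe set and 7 were tested, CYP7A1 included; the median diet effect over those 7 was 0.05. CYP27A1, which starts the alternative route, stood at -0.13. CYP8B1, which makes cholic acid precursors, was below the filter in both tissues. Of the regulators, NR5A2 stood at -0.11, HNF4A at -0.21 and PPARGC1A, a coactivator, at -0.49 (adjusted p = 0.246 in limma). NR0B2 and NR1H4, the bile acid sensing pair that holds CYP7A1 down, were not analysed here. Of the transporters, ABCB11, the bile salt export pump, stood at -0.28 (adjusted p = 0.307), SLC10A1, which takes bile salts up, at -0.23 and ABCC2 at 0.08.

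**Figure D4:**
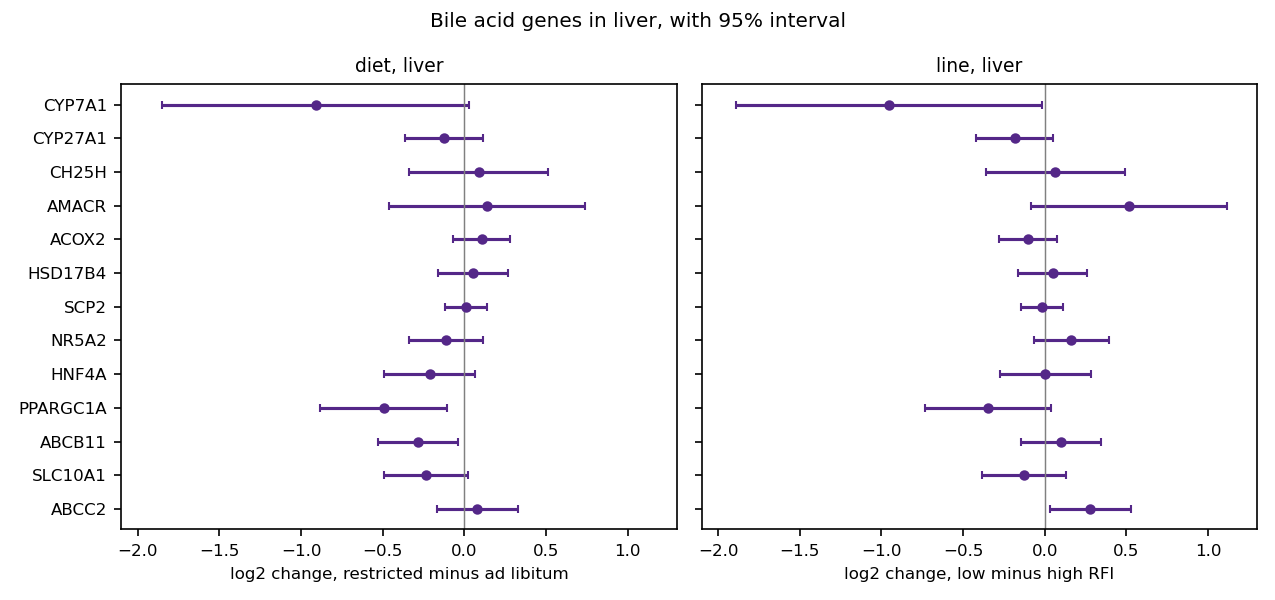
Log2 effect of diet (restricted minus ad libitum) and of line (low minus high RFI) on 13 genes of bile acid synthesis, control and transport in liver, with 95% intervals. CYP7A1 has the widest intervals and lies lowest in both panels, at -0.91 and -0.95; none of the 13 passed the adjusted threshold.

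In fat, 3 of the 6 tested genes of the bile acid synthesis list fell under restriction, beside 10.7% of all probe sets: AMACR (-1.02, adjusted p = 2.41e-06 in limma), HSD17B4 (-0.61, adjusted p = 0.000142) and ACOX2 (-0.54, adjusted p = 0.00135). The count rests for ACOX2 on its brighter probe set, and the other tested one stood at 0.55, on the opposite side, and did not pass. These 3 genes encode peroxisomal enzymes that shorten the sterol side chain and are also known to act on branched or very long fatty acids. AMACR and HSD17B4 separated the diets completely, as did 1.01% of all probe sets. The 2 hydroxylases tested there stood above 0, CYP27A1 at 0.42 (adjusted p = 0.148) and CH25H at 0.41 (adjusted p = 0.0804). The fat effect was lower than the liver effect for AMACR (-1.16, adjusted p = 0.0149), ACOX2 (-0.65, adjusted p = 0.00159) and HSD17B4 (-0.66, adjusted p = 0.00159).

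No gene of the 4 passed the test for line in either tissue. In fat, CYP51 was 1.38-fold lower in low RFI pigs (log2 -0.47, interval -0.80 to -0.13, unadjusted p = 0.0085, adjusted p = 0.42 in limma), with -0.37 ad libitum and -0.56 under restriction. FDPS stood at -0.06 and TM7SF2 at -0.21. The line test called 0.0194% of fat probe sets and 0.0447% of liver probe sets. All 11 sterol genes in fat were below 0 for line, with a median of -0.22. None passed, and 3 had an unadjusted p under 0.05 in limma, as did 1205 of all 15498 probe sets tested. Skeletal muscle marker signal in fat had a higher median in low RFI pigs, with overlapping ranges, as given above. Of its 10 tested markers 0 passed the line test, with a median line value of 2.20. With the mean of these markers as a covariate the CYP51 line value was -0.52 (adjusted p = 0.632 in limma).

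In liver CYP7A1 was 1.94-fold lower in low RFI pigs (log2 -0.95, interval -1.89 to -0.02, unadjusted p = 0.0467, adjusted p = 0.761 in limma). It stood at -1.21 ad libitum and at -0.70 under restriction. The sign turned between number sets, from 0.31 within arrays numbered 1 and 2 to -1.79 within those numbered 3 to 5. FDPS stood at 0.28 (interval -0.07 to 0.64), CYP51 at 0.04 and TM7SF2 at 0.00. No probe set in liver passed the interaction test (0%), while 525 had an unadjusted p under 0.05.

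Whether 2 genes changed unequally was tested on the log2 ratio of their intensities within an array, by exact permutation of diet within line over 63504 arrangements (two-sided, 8 ratios, Benjamini-Hochberg). In fat the FDPS to FDFT1 ratio was -0.28 ± 0.429 (SD, n = 10) ad libitum and -1.51 ± 0.383 (n = 10) under restriction. The change of -1.23 had an exact p of 3.15e-05, the smallest these arrangements can give (adjusted 0.000252). FDFT1 was chosen for this ratio after its values were seen. In liver the same ratio changed by 0.04 (exact p = 0.877). The liver FDPS to TM7SF2 ratio changed by 0.72 (exact p = 0.0127, adjusted 0.0508), and the other 5 ratios had adjusted values of 0.23 or more.

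Among pigs of a group, FDPS and CYP51 in fat had the highest correlation, which did not pass the correction. Over 20 fat arrays, deviations from group means correlated with Pearson r = 0.58 (permutation p = 0.0145, 0.131 after adjustment over 9 relations) and Spearman rho = 0.51 (permutation p = 0.0371, 0.334 adjusted). Without the 2 arrays farthest from the median r was 0.41, and within the number sets it was 0.87 (n = 8) and 0.67 (n = 12). The other 8 relations among the genes, in fat and liver, had r between -0.27 and 0.40, with adjusted permutation values of 0.537 or more. FDPS and TM7SF2 in fat had r = 0.17 over all arrays, and 0.60 and 0.24 within the lower and upper number sets. CYP51 and TM7SF2 in fat had r = -0.07 over all arrays but 0.66 and 0.67 within the sets. In liver the within-set values lay between -0.55 and 0.70. Over all liver arrays TM7SF2 and CYP7A1 had r = 0.09.

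Genes of most similar pattern were ranked by Pearson r over 20 arrays of a tissue, after group and replicate number means were removed, among 5552 named genes in fat and 5723 in liver. These are descriptions of shared deviations on the same arrays. In fat FDPS was closest to FAM149A (r = 0.93), SMIM19, ATP5B, FAM162A and ENOPH1, and CYP51 to NDUFA1 (r = 0.93), FAM149A, NDUFB1, NDUFAB1 and MSMO1 (r = 0.85). MSMO1 was the only gene of the sterol list among these nearest genes in either tissue. TM7SF2 in fat was closest to ASL (r = 0.89), IFI35, LOC100621559, ALKBH3 and SMIM4. In liver the nearest were ECSCR (r = 0.87), REXO2, HSF2BP, FKBP4 and USP5 for FDPS, and ELOVL6 (r = 0.88), NIT1, GNG5, PIGF and TSC22D3 for CYP51. They were LOC102163508 (r = 0.90), NUDT9, COQ6, A1BG and IVD for TM7SF2, and EIF3M (r = 0.85), SLU7, PDGFRL, TMEM19 and SLC22A6 for CYP7A1.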

How the data were processed

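RNA was hybridised to 1-colour Affymetrix porcine arrays. The authors deposited linear intensity values per probe set, already background-corrected, summarised and scaled, and the submitters' processing notes name MAS5 and affy without a version. No genome build for the arrays is given in the sources used here, so no coordinates are printed. From 24123 probe sets, 124 controls were removed. Annotation gave several symbols to 198 of the rest and none to 13732. The deposited intensities were log2-transformed with no offset. Probe sets above the 40th percentile of their own array on at least 5 of 20 arrays of a tissue were tested. Group means per tissue, and 8 group means over both tissues, were fitted with limma 3.58.1 in R 4.3.3 (eBayes with intensity trend) and adjusted by Benjamini-Hochberg. The fitting code was tested on simulated data. Plots used Python 3.11.15 and matplotlib 3.10.9.

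A gene with several probe sets is given by its brightest one in the tissue. Named were the 4 genes, listed genes past the threshold for diet or line, a fixed set of genes of sterol and bile acid control whatever their values (some are not reported here), and for likeness the 5 genes of highest r. Further genes of the lists are named where a count or a group is described. The members, lists, rules and comparisons were chosen with earlier results of these data known. The alternatives were no filter or one at the 60th percentile, quantile normalization, an offset at the 20th percentile, eBayes without the trend, a replicate block, each array left out, arrays numbered 1 and 2 or 3 to 5 alone, control ratios or muscle or hepatocyte marker means as covariates, and, chosen after seeing the data, fat without 3 arrays of strongest muscle or hepatocyte markers.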

Additional observations from a re-analysis of the deposited data

Results flagged for a closer look

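In each of 32 groups of 5 arrays (4 genes, 8 groups) the gap between the highest or lowest array and its nearest neighbour was set against the whole range of log2 values, and 2 groups passed the critical share of 0.71; chance alone passes about 1 group in 20. CYP51 in liver of low RFI restricted pigs was lowest on array 5, at 4472 against 7866 for the next, a gap of 0.772 of the range. CYP51 in fat of low RFI restricted pigs was highest on array 2, at 1736 against 865 for the next, a gap of 0.812 of the range. Without fat array 2 the diet effect on CYP51 in low RFI fat was -1.56, and without liver array 5 that in low RFI liver was -0.33; these are the values farthest from the full ones (-1.34 and -0.51) over the arrays left out.

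The diet effect differed between fat and liver by a test of the difference for FDPS (-1.07) and CYP51 (-0.80), as described with the tissues above.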

How the results depend on the processing

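The number of arrays limits the precision: the SE of a diet effect was 0.16 to 0.17 in fat and 0.15 to 0.45 in liver, and CYP7A1 in fat gave no test. Each of these genes had 1 probe set, so a mean over probe sets changed nothing, and TM7SF2 in fat has no value under the stricter filter. Of the results given as single values or list counts, the fat diet effects of FDPS and TM7SF2 and the liver minus fat levels kept their direction and call in all settings run.

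Within arrays numbered 1 and 2, CYP51 diet in fat was -1.15, the count of sterol genes lower in fat 4 (9 in the full set), and the fat minus liver diet effect -1.20 for FDPS, -1.08 for CYP51 and -0.23 for TM7SF2; within those numbered 3 to 5 it was -0.99 for FDPS and -0.61 for CYP51. The TM7SF2 difference was also -0.19 after quantile normalization and -0.10 to 0.10 with each array left out. TM7SF2 diet in liver was -0.96 with no intensity trend (adjusted p = 0.0636), -0.90 within arrays numbered 1 and 2, -0.995 within those numbered 3 to 5, and -1.06 to -0.86 with each array left out. The count of sterol genes lower in liver, 1 in the full set, was 2 under quantile normalization, the stricter filter, the control ratio covariates and the replicate block, 0 with no trend and within either number set, and 0 to 2 with each array left out. For these changes the cause was not tested, beyond the smaller number of arrays within a number set.

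Values within 1 line or 1 diet and bile acid list counts were tallied over the settings other than each array left out. Of these, 346 kept direction and call, 14 lost a call, all of them diet effects within a line in fat, 1 gained a call and 5 counts moved. With each array left out, the diet effect on TM7SF2 in high RFI fat also lost its call, as given above. The count of bile acid genes called higher with diet in fat, 0 in the full set, then ran from 0 to 3. Effects that passed no test changed sign as follows. Within arrays numbered 1 and 2: FDPS diet in liver 0.19 and in low RFI liver 0.39, CYP51 diet in high RFI liver 0.037, line in liver FDPS -0.044, CYP51 -0.24 and CYP7A1 0.31, line ad libitum FDPS -0.071 in fat and -0.25 in liver and CYP51 -0.14 in liver, line under restriction in liver TM7SF2 -0.029 and CYP7A1 0.77, and the CYP51 interaction in fat 0.42. Within arrays numbered 3 to 5: line in fat FDPS 0.0093 and TM7SF2 0.028 (0.13 under restriction), line in liver TM7SF2 0.16 (0.29 ad libitum) and CYP51 under restriction 0.18, and the TM7SF2 interaction 0.20 in fat and -0.26 in liver. With control ratio covariates, in liver: CYP51 interaction 0.015 and line under restriction 0.044, TM7SF2 line 0.015, 0.11 ad libitum and -0.079 under restriction, and interaction -0.19. After quantile normalization, in liver: TM7SF2 line 0.0048, 0.023 ad libitum and -0.014 under restriction, and interaction -0.037. Without the 3 marker-rich fat arrays the TM7SF2 interaction was 0.020.

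With each array left out, sign changes gave these ranges in liver: CYP51 line -0.042 to 0.13, line under restriction -0.19 to 0.15 and interaction -0.30 to 0.044; CYP7A1 interaction -0.024 to 0.88; FDPS diet in low RFI pigs -0.35 to 0.037 and interaction -0.0084 to 0.38; TM7SF2 line -0.11 to 0.088, ad libitum -0.22 to 0.15, under restriction -0.19 to 0.19 and interaction -0.18 to 0.23. In fat they were: FDPS line -0.15 to 0.0049 and ad libitum -0.042 to 0.27; TM7SF2 interaction -0.24 to 0.058.

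Arrays of 1 number did not meet the test for pairing: same-numbered arrays of different groups correlated over 0.1 in 23 of 30 pairs in fat (lowest 0.02) and 26 of 30 in liver, and 12 of 20 and 13 of 20 arrays correlated best with their own number. Between fat and liver, where a shared number may but need not mean 1 pig, 19 of 20 pairs of the same line, diet and number were over 0.1 (lowest 0.07, median 0.23, against -0.03 for all other pairs). Among all 20 liver arrays, 12 of 20 fat arrays correlated best with the one of their own line, diet and number. With the replicate block, TM7SF2 diet in liver had an adjusted p of 0.00441 and calls over all probe sets went from 144 to 328 in liver and from 3999 to 5011 in fat; the block ended no call of the 4 genes.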

Other observations

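ABCA1 in fat lay between 430 and 1717 ad libitum and between 1921 and 3757 under restriction. Its change in fat minus that in liver was 1.89 (adjusted p = 6.38e-06 in limma), and in liver its medians were 2146 and 2317. Of the other tested genes of cholesterol efflux in fat, NR1H3, the sterol receptor known to induce ABCA1, stood at 0.22 (adjusted p = 0.289), APOE at 0.09 and LCAT at -0.02.

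FAM149A was near the top of the likeness ranking for both FDPS (r = 0.93) and CYP51 (r = 0.89) in fat, while its own diet effect was 0.03 (adjusted p = 0.856 in limma). NDUFA1 (-0.72, adjusted p = 4.42e-05) and NDUFAB1 (-1.02, adjusted p = 9.4e-06), subunits of mitochondrial complex I near CYP51 in that ranking, fell with diet in fat. So did ATP5B (-0.84, adjusted p = 2.85e-06), a subunit of ATP synthase near FDPS. Of the other genes near FDPS or CYP51, NDUFB1 (-0.56), SMIM19 (-0.36), FAM162A (-0.75) and MSMO1 fell too, and ENOPH1 (-0.26, adjusted p = 0.0599) did not pass. Lower calls made up 10.7% of all probe sets tested in fat. A shared theme of these genes was not tested.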
